A study of Mus musculus with 4 samples.

Results

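The genes described here encode the subunits of Polycomb repressive complexes 1 and 2 (PRC1 and PRC2). They were read for occupancy by RYBP, itself a PRC1 subunit, in FLK1+ mesoderm. The list was chosen by function and held 40 of the 22208 protein-coding gene symbols annotated on chromosomes 1 to 19 and X. Each locus was the gene body together with 5 kb upstream of it. RYBP regions were called at 36 of the 40 loci, against 57.1% of all genes. At 31 loci (77.5%) a region was found in both replicates, against 38.9% of all genes. All 40 members had a CpG-rich start site, as described below. Of all genes with such a start site, 82.2% had a region at a start site and 58.5% had one in both replicates. The highest mean fold enrichments were at the start sites of E2f6, Rybp, Jarid2 and Mga, and no region was called at Pcgf3, Dcaf7, L3mbtl2 or Eed.

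Polycomb proteins keep developmental genes silent by modifying histones. PRC1 places ubiquitin on histone H2A through the RING1A or RING1B ligase, and PRC2 methylates lysine 27 of histone H3 through EZH1 or EZH2. Each PRC1 is built around 1 of several PCGF proteins. Canonical PRC1 carries a CBX protein, which reads methylated H3K27, together with a PHC protein, whereas non-canonical PRC1 carries RYBP or its paralog YAF2. The non-canonical complexes are named after their PCGF subunit (PRC1.1, PRC1.3, PRC1.5 and PRC1.6). PRC2 consists of a core of EZH1 or EZH2, EED, SUZ12 and RBBP4 or RBBP7, to which accessory proteins such as JARID2 or PHF19 are added.

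The series comprised 4 samples of chromatin from FLK1+ cells, isolated on magnetic columns from wild-type embryoid bodies at day 3.75. Embryoid bodies are cell aggregates in which mouse embryonic stem cells differentiate. The labels give the strain as C57Bl/6 X Sv129, the methods name J1 as the wild-type stem cell line, and there was no mutant or treated group. RYBP chromatin immunoprecipitation (ChIP) was performed on 2 samples, and 2 inputs (chromatin not precipitated) had no processed file and were not analysed here. FLK1 marks mesoderm with blood, endothelial and other potentials, so each value is an average over a mixed population; peak lists hold no marker expression by which the cell type could be checked.

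The lists contained 14794 peaks in replicate 1 and 18154 in replicate 2, and their union 22409 merged regions, of which 44.2% were in both. The files hold no read depth, and the study lists more mapped reads for replicate 1, which has fewer peaks. Fold enrichment here is the ratio of ChIP signal to local background given by the authors' peak caller, and the −log10 q-value rises with the confidence of a call. With 1 group of 2 replicates no test was possible. Counts are therefore set beside the share of all genes, and values beside both replicates.

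The windows around the annotated 5′ ends of 5 members are printed to show sequences of occupied and unoccupied members side by side. Each runs from 250 bases before to 50 bases after the 5′ end, reads 5′ to 3′ on the strand of the gene and has its CpG dinucleotides in capitals. Rybp and E2f6 had the highest mean fold enrichments of the PRC1 genes, whereas Eed and L3mbtl2 had no region. Jarid2 is shown as an occupied member whose window holds few CpG. The Rybp window (mm9, chr6:100237386-100237685, minus strand) held 58 CpG and the E2f6 window (chr12:16817521-16817820, plus strand) 29. The Eed window (chr7:97129444-97129743, minus strand) and the L3mbtl2 window (chr15:81494069-81494368, plus strand) held 17 each. The Jarid2 window (chr13:44824593-44824892, plus strand) held 8.
Rybp: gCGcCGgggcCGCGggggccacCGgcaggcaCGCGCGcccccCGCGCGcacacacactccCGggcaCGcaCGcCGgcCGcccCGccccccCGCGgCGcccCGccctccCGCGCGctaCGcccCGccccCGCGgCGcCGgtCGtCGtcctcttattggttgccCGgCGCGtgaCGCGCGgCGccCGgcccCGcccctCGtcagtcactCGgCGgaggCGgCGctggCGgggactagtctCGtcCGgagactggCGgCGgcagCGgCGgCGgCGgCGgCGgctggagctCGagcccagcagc
E2f6: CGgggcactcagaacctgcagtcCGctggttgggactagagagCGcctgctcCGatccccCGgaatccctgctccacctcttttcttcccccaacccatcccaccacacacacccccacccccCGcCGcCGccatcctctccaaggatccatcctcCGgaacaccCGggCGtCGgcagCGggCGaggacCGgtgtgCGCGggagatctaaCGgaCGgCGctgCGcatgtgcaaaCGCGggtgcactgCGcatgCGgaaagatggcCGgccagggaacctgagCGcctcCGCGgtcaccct
Eed: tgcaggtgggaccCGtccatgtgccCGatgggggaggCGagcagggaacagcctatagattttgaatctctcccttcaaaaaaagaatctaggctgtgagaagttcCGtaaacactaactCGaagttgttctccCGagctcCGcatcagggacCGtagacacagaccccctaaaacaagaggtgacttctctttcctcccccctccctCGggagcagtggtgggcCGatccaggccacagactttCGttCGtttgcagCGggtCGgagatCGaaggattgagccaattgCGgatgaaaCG
L3mbtl2: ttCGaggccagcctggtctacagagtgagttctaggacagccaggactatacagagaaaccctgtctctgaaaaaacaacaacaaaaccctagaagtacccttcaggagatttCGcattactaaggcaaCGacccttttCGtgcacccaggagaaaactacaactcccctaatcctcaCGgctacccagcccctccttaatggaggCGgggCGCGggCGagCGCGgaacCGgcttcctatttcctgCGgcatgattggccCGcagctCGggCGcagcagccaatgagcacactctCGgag
Jarid2: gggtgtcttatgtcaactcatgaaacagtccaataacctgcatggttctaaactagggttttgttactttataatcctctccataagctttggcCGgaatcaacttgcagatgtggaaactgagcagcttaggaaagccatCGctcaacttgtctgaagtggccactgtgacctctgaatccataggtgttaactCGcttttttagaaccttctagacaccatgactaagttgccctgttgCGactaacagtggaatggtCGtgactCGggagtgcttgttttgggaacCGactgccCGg
The Rybp, E2f6 and Jarid2 windows lay wholly inside a merged RYBP region, and the Eed and L3mbtl2 windows did not. For Jarid2 this came from replicate 2, as the replicate 1 peak began inside the window, at position 44824822. The richest Jarid2 start site had 9.89 CpG per 100 bp. The number of CpG in this window did not separate occupied from unoccupied members. Aebp2, with 1 CpG, and Phc1, with 7, had a region at the locus, whereas Pcgf3, with 20, and Dcaf7, with 24, had none. The window at the annotated 5′ end need not be the occupied stretch, and that of Aebp2 lay outside its region. At their richest start sites, counted as described below, Aebp2 had 13.2 and Phc1 11.3 CpG per 100 bp.

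Occupancy by complex was counted first. All 4 genes of the shared PRC1 subunits and all 5 PRC1.1 genes had a region found in both replicates. For PRC1.6 this held for 5 of 6 genes, for canonical PRC1 for 9 of 10 and for the PRC1.3 and PRC1.5 genes for 2 of 4. In PRC2 it held for 3 of the 6 core genes and 3 of the 5 accessory genes. Summed over the complexes, 25 of 29 PRC1 genes and 6 of 11 PRC2 genes had a region in both replicates, and 26 and 10, respectively, had one in the merged list. Over all genes the shares were 38.9% in both replicates and 57.1% in the merged list, and over genes with a CpG-rich start site, as described below, 58.5% and 82.2% at start sites. The 6 of 11 PRC2 genes were thus not above the share of CpG-rich genes in both replicates. Some replicate 1 calls behind the PRC1 counts were weak. Their −log10 q was 1.81 at Yaf2, 1.72 at Rnf2, 1.16 at Usp7 and 1.21 at Cbx3. With a −log10 q of at least 2 required, 27 members had a region in both replicates, instead of 31. The difference between the complexes was not tested, as the lists are small and were chosen with results known.

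Replicates were also read on their own. In replicate 1, 32 of the 40 loci (80.0%) held a peak, against 43.9% of all genes, and in replicate 2, 36 loci, against 53.7%. The median of the strongest fold enrichment per locus was 3.80 over the members in replicate 1 and 4.20 in replicate 2. Over all genes with a peak the medians were 3.53 and 3.92. Of the members, 22 of 32 lay above the median of all genes in replicate 1 and 22 of 36 in replicate 2. Rybp, E2f6, Mga, Bmi1, Ezh2 and Jarid2 were at or above the 90th percentile of all genes in both replicates, which stood at 4.51 and 5.30. For Bmi1 the replicate 1 value came from an upstream region shared with Commd3. Its own start-site region had 4.10 in replicate 1, below that percentile, so that without the shared region 5 members remained. Replicate 2 gave the higher value at 28 of the 32 members with a peak in each; among all genes with a peak in each replicate it did so at 78.3%.

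The subunits common to non-canonical PRC1 and the ligases were examined next. Rybp, whose product was the target of the ChIP, had a region of 2883 bp over its own start site, chr6:100236460-100239342, with fold enrichments of 5.95 and 6.24 in replicates 1 and 2. The replicates were close, at a mean of 6.09 ± 0.20 (SD, n = 2). Its paralog Yaf2 had values of 2.90 and 5.02 over its start site, so that both Rybp values exceeded both Yaf2 values. The Yaf2 replicates stood far apart, on either side of the medians of all genes. The ligase genes had lower values. Ring1, encoding RING1A, had 3.25 and 3.59 at its start site, and Rnf2, encoding RING1B, had 3.05 and 3.20. Both Ring1 values lay just above both Rnf2 values. A second region upstream of Ring1, with 3.10 and 2.88, contained the start site of the neighbouring gene H2-Ke6.

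**Figure D1:**
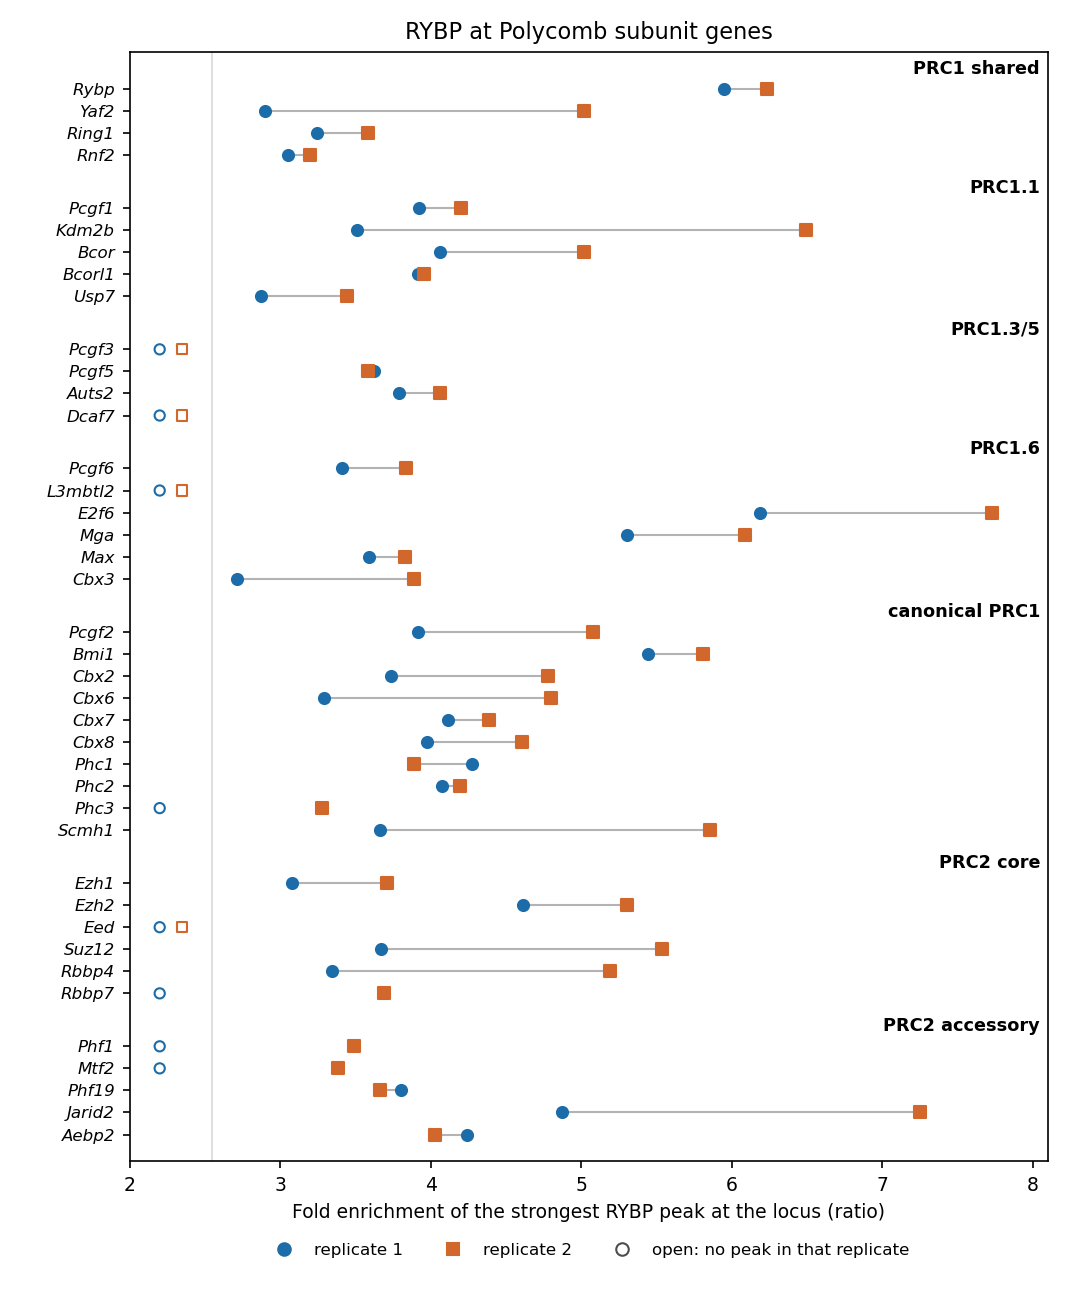
Fold enrichment of the strongest peak at each member locus in replicate 1 (circles) and replicate 2 (squares), grouped by complex, with open symbols at the left where a replicate had no peak. E2f6 reached 6.19 and 7.73, the highest of the members in each replicate, and Pcgf3, Dcaf7, L3mbtl2 and Eed had no peak.

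All 5 PRC1.1 genes were occupied in both replicates. PRC1.1 is brought to unmethylated CpG islands by KDM2B, a CpG-binding protein. The Kdm2b locus held 4 regions, 3 of them in both replicates. Of these, the region with the highest replicate 2 value, chr5:123349473-123350988, lay over an internal start site from 114101 bp into the gene, with 3.12 and 6.49. The region at its annotated 5′ end had 2.88 and 4.37 and also contained the start site of Orai1, so that its signal cannot be assigned to either gene. The remaining shared region, in an exon, had 3.51 and 3.34, and a region with 3.36 was found in replicate 2 alone. Pcgf1, the defining PCGF subunit, had 3.92 and 4.20 over its start site. Usp7, a deubiquitinase, had 2.88 and 3.44 in a single region at an internal start site 52933 bp from the annotated 5′ end. The Usp7 values were below the medians of all genes in both replicates.

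The corepressor genes Bcor and Bcorl1, both on the X chromosome, differed in the extent of occupancy. The Bcor locus held 11 regions, 6 of them in both replicates, 1 in replicate 1 alone and 4 in replicate 2 alone. Together they covered 26.2 kb, or 20.4% of the locus. The widest, chrX:11653686-11659281, spanned 5596 bp over an internal start site and had 3.75 and 4.91. An intronic region of 5187 bp had 3.79 and 5.02, a region of 4628 bp over a further pair of start sites 4.06 and 4.30, and an intronic region of 5332 bp 3.85 and 4.33. At the annotated 5′ end the values were lower, at 3.38 and 3.93. Fold enrichment as given for the called regions at Bcor was thus moderate in every region, and the locus stood out by the length covered. Whether the width of a called region bears on its fold enrichment was not tested.

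Set against the whole X chromosome, Bcor held 4.47% of its 246 merged regions and 10.6% of the 247 kb they covered. Of the 5 X-linked regions of 4 kb or more, 4 lay at Bcor. It had the most regions of any X-linked gene, followed by Mid1 with 8, whereas over all chromosomes 40 genes had at least as many. A region was present at 182 of 927 X-linked genes (19.6%), against 57.1% of all genes. Bcorl1 had 2 regions next to each other. The region at its 5′ end had 3.92 and 3.96, and a further one had 3.70 in replicate 1 alone.

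**Figure D2:**
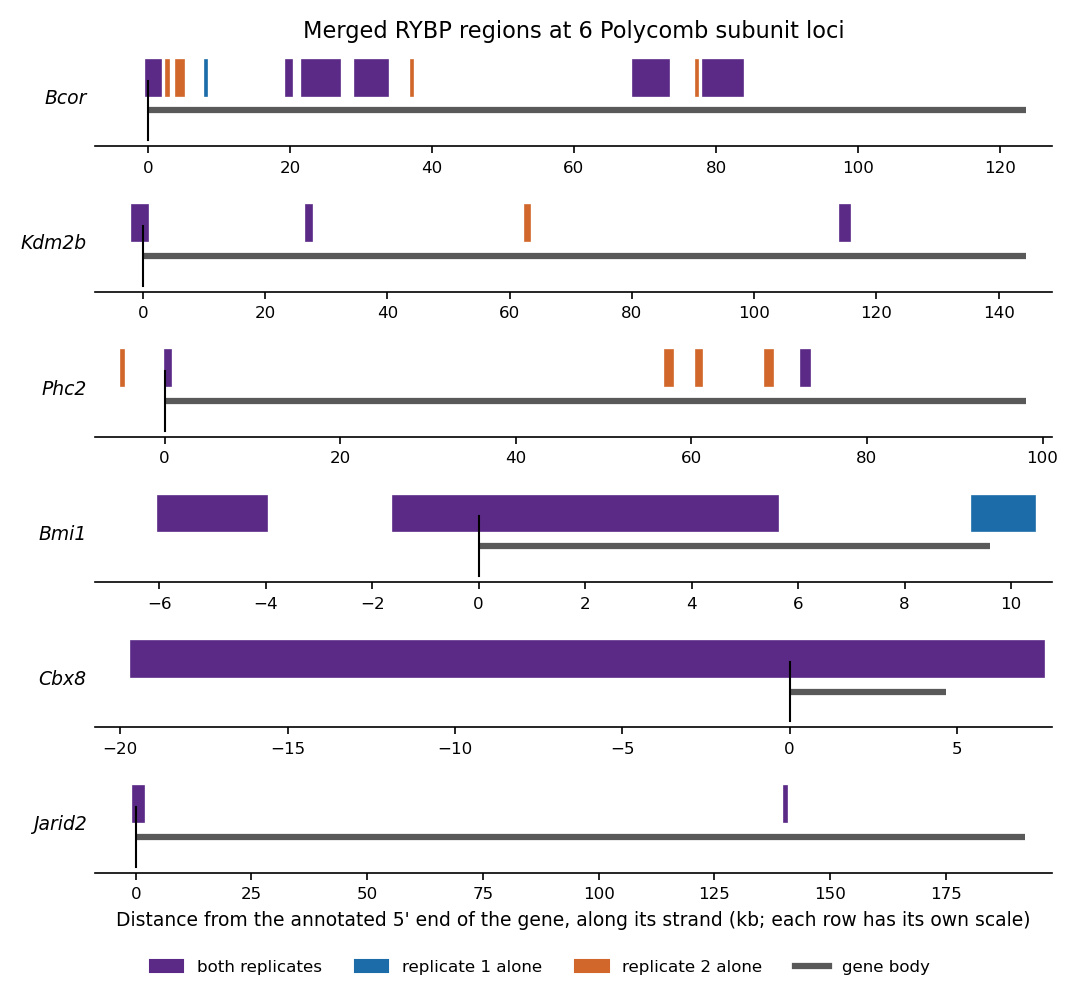
Maps of RYBP regions along 6 member loci with broad, multiple or distant regions, in kb from the annotated 5′ end of each gene along its strand, each row with its own scale. Colours mark regions in both replicates or in 1 alone, and grey lines the gene bodies. Bcor carried 11 separate regions along its body, whereas 1 merged region of 27284 bp spanned Cbx8. The latter was 1 peak in replicate 1 and 5 separate peaks in replicate 2.

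In the PRC1.3 and PRC1.5 group 2 of 4 genes were occupied. Pcgf5 had 3.63 and 3.58 in a region of 556 bp, which lay in an exon 17 bp from an internal start site and 30698 bp from the annotated 5′ end. Pcgf3, which encodes the PCGF subunit of PRC1.3, had no region, and its nearest peaks were 90264 and 87943 bp from its 5′ end in replicates 1 and 2. Auts2, a large neuronal gene encoding an accessory subunit, had 4 regions, 2 of them in both replicates. The region over its 5′ end, 3400 bp wide, had 3.70 and 4.06. A region of 1922 bp over an internal start site had nearly the same values, 3.79 and 4.06. The other Auts2 regions had 2.96 and 3.32 in replicate 2 alone. Dcaf7, encoding the WD40 partner, had no region, with nearest peaks at 16157 and 16156 bp from its 5′ end.

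PRC1.6 contains the sequence-specific DNA-binding proteins E2F6, MGA and MAX, and its genes held both the highest value among the members and a gene with no region. At E2f6 the region chr12:16817221-16818703 covered both annotated start sites and had 6.19 and 7.73, with −log10 q of 13.0 and 13.5. These values stood at the 99.32 and 99.62 percentiles of all genes with a peak. Mga had 5.30 and 6.09 in a region of 1971 bp over 4 start sites. Max, encoding the dimer partner of MGA, had 3.59 and 3.83, below both Mga values. Pcgf6 had 3.41 and 3.84 in a region of 516 bp. Cbx3, encoding the heterochromatin protein HP1 gamma, had 2.72 and 3.89 just inside its 5′ end, the former being the lowest of the members in replicate 1. A second Cbx3 region, upstream, had 3.63 in replicate 2 alone. L3mbtl2, encoding a protein that reads methylated histones, had no region, and its nearest peaks were 28375 and 29760 bp from its 5′ end. With 5 kb downstream of each gene counted as well, all 6 PRC1.6 genes, L3mbtl2 included, had a region.

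In canonical PRC1 the PCGF genes Bmi1 and Pcgf2 were occupied over several kb. The Bmi1 start-site region, chr2:18597032-18604274, spanned 7243 bp and all 7 annotated start sites, and had 4.10 and 5.81. In replicate 1 this was 1 peak and in replicate 2 a pair of narrower ones, of 2094 and 1323 bp. An upstream region with 5.45 and 5.06 also belonged to the Bmi1 locus, but it contained the start site of Commd3, so that the replicate 1 maximum of Bmi1 came from a shared region. Another region, at the 3′ end of the gene, had 3.20 in replicate 1 alone. Pcgf2, encoding MEL18, had 3.92 and 5.08 at its start sites, 2.94 and 3.62 upstream, and 3.10 in an exon in replicate 2 alone.

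Among the CBX genes of canonical PRC1, Cbx8 lay inside the widest region of the members. This region, chr11:118894671-118921954, spanned 27284 bp, the 4th widest of all merged regions, and covered the Cbx8 locus whole. It ran from position −19671 to 7612 relative to the 5′ end of Cbx8. Replicate 1 had 1 peak of 26717 bp with 3.97, and replicate 2 had 5 peaks of 818 to 9665 bp with 3.91 to 4.61. The breadth of 1 unbroken region thus came from replicate 1, whereas its outer ends were nearly the same in both. Its neighbour Cbx2 had a separate region over its start sites with 3.73 and 4.78, and one with 3.52 in replicate 2 alone. Cbx6 had 3.29 and 4.80 at its start sites, 3.13 in replicate 1 alone in an exon and 3.24 in replicate 2 alone upstream. Cbx7 had 4.11 and 4.39 at a cluster of internal start sites 38334 bp from the annotated 5′ end, and minor regions with 3.14 in replicate 1 alone and 3.11 in replicate 2 alone. The ranges of the 4 CBX genes overlapped throughout.

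The polyhomeotic genes, whose products polymerise through a SAM domain, were occupied unequally. Phc1 had 4.28 and 3.89 in a region over 10 of its 15 start sites, and was among the 4 members with the lower value in replicate 2, with Pcgf5, Phf19 and Aebp2. Phc2 held 6 regions, of which those at the annotated 5′ end (3.97 and 4.19) and at an internal cluster of 7 start sites (4.08 and 4.04) were in both replicates. The other 4 Phc2 regions were in replicate 2 alone, with 3.01 to 3.52. Phc3 had 3.28 in replicate 2 alone, 71 bp inside its 5′ end, and the nearest replicate 1 peak was 113097 bp from that end. Both Phc1 and both Phc2 values exceeded the Phc3 value. Scmh1, an accessory subunit gene, had 3.66 and 5.86 at its start site, replicates standing far apart (4.76 ± 1.55, SD, n = 2).

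Of the methyltransferase genes of the PRC2 core, Ezh2 was occupied in both replicates and Ezh1 at different places in each. Ezh2 had 4.62 and 5.31 in a region of 2499 bp over its 5′ end, chr6:47544180-47546678. The Ezh1 locus had 3.08 at its 3′ end in replicate 1 and, in replicate 2, 2.97 within an intron next to the 5′ end and 3.71 upstream. Both Ezh2 values exceeded all Ezh1 values. Suz12, the scaffold, had 3.67 and 5.54 in a region of 501 bp, chr11:79805845-79806345, which ended 263 bp before its first annotated base. Rbbp4, a histone chaperone gene, had 3.35 and 5.19 at its start sites, and its X-linked paralog Rbbp7 had 3.69 in replicate 2 alone. Eed, encoding the subunit that reads methylated H3K27, had no region; the nearest peaks were 70369 bp from its 5′ end in replicate 1 and 148599 bp in replicate 2.

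Among the PRC2 accessory genes the values were highest at Jarid2, a DNA-binding subunit. Its start-site region, chr13:44824359-44826548, had 4.88 and 7.25. A second region of 503 bp lay in an intron 140107 bp into the gene, 28767 bp from the nearest Jarid2 start site, with 4.12 and 3.63. The −log10 q of this narrow region was 8.68 and 7.94, so that in replicate 1 it exceeded the 7.50 of the start-site region. Aebp2, the other subunit of the JARID2-containing form, had 4.24 and 4.03 over 6 start sites. The Polycomb-like genes had lower values. Phf19 had 3.80 and 3.42 at its start site and a further 2 regions with 3.66 and 3.48 in replicate 2 alone. Phf1 had 3.49 and Mtf2 3.38, each in replicate 2 alone, in regions of 414 and 328 bp.

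Regions were next placed relative to gene structure. The member loci held 74 regions, of which 44 were in both replicates, 6 in replicate 1 alone and 24 in replicate 2 alone. A start site of the member lay inside 37 regions, and 32 of these (86.5%) were in both replicates, beside 74.8% of all merged regions that contain a protein-coding start site. Of the other 37, which lay in exons (14), introns (15) or upstream (8), 12 were in both replicates. Of all merged regions without a protein-coding start site of any gene, 22.3% were in both. The classes are not alike, as the 12 include the upstream regions at Ring1 and Bmi1. These contain the start sites of H2-Ke6 and Commd3. A region more than 2.5 kb from every start site of its gene was found 20 times, 6 of them in both replicates. These were the intronic Jarid2 region, 3 regions at Bcor and the upstream regions at Ring1 and Bmi1. With a region counted only within 2.5 kb of a start site, 36 members were still occupied, against 54.0% of all genes, and 31 in both replicates, against 37.2%.

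Several start-site regions also contained the start of another annotated gene, and peaks cannot be assigned between them. Besides Orai1 at Kdm2b, these were Mir219-1 at Ring1, 2900008C10Rik at the 5′ end of Bcor, Npcd at Cbx6, Gm13448 at Phf19, AL672246.1 at Bcorl1 and AC156026.1 at Usp7.

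Some start sites of a gene were covered and others were not. Regions contained 116 of the 271 distinct start sites of the members (42.8%), against 33.1% of all start sites. At Usp7, Pcgf5 and Cbx7 the region lay at or next to an internal start site and the annotated 5′ end was not covered. The median width of the regions at member loci was 1021 bp, against 766 bp for all merged regions. A region of 4 kb or more was present at 3 members (7.50%), namely Bcor, Bmi1 and Cbx8, against 2.88% of all genes. At least 3 regions were present at 10 of 40 members, against 7.05% of all genes. These were Kdm2b, Bcor, Auts2, Pcgf2, Bmi1, Cbx6, Cbx7, Phc2, Ezh1 and Phf19. Among them only Bcor, with 6, and Kdm2b, with 3, had at least 3 regions found in both replicates, and Ezh1 had none. The share of all genes was taken from the merged list and not counted in both replicates or for CpG-rich genes.

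CpG density moved with occupancy and is therefore given beside the counts. Density was counted as CpG per 100 bp over the 500 bp before and after a start site, at the richest start site of each gene. All 40 members had a start site with at least 3 CpG per 100 bp, against 60.8% of all genes. Members ranged from 5.69 at L3mbtl2 to 16.7 at Rybp, with a median of 10.1, whereas the median was 4.70 over all genes and 6.89 over the CpG-rich genes. Among CpG-rich genes as a whole, 82.2% had a region at a start site and 58.5% had one in both replicates. The members' 36 and 31 of 40 thus stood much closer to the CpG-rich genes than to all genes.

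A finer split, chosen after the data had been seen, brought the shares closer still. At a density of 10 or more, 19 of 20 members had a start-site region in both replicates, against 83.4% of all such genes, and the exception was Rbbp7. At a density of 3 to 10 it was 12 of 20 members (60.0%), against 53.8% of all such genes. The median density was 11.1 in the 31 members occupied in both replicates (7.09 to 16.7). It was 7.19 in the 5 without a shared start-site region that had one in the merged list (5.79 to 11.3), and 6.89 in the 4 with none (5.69 to 9.79). The order of fold enrichment differed from that of density. Rybp, with the second highest mean fold enrichment, had the highest density. E2f6, with the highest fold enrichment, had 8.99 CpG per 100 bp, Mga had 7.09, and Usp7, with 2.88 and 3.44, had 16.4.

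**Figure D3:**
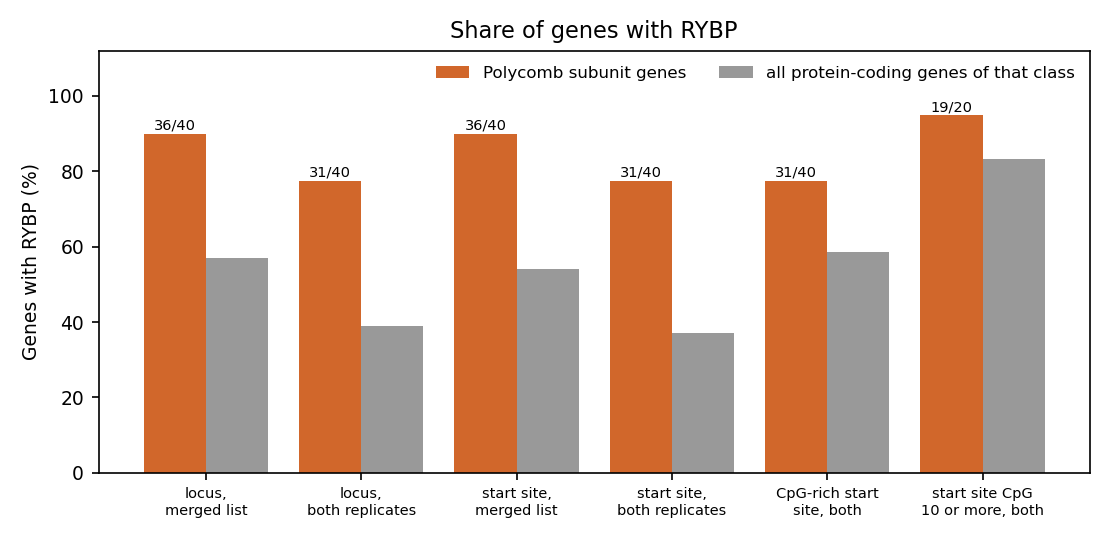
Shares of the Polycomb subunit genes (orange bars, with counts) and of all protein-coding genes of the same class (grey bars) with an RYBP region, in percent, by locus, by start site and by CpG density of the start site. With regions in both replicates, the grey bars stand at 37.2% for start sites of all genes, 58.5% for CpG-rich genes and 83.4% for genes with 10 or more CpG per 100 bp, where the members stand at 19 of 20.

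**Figure D4:**
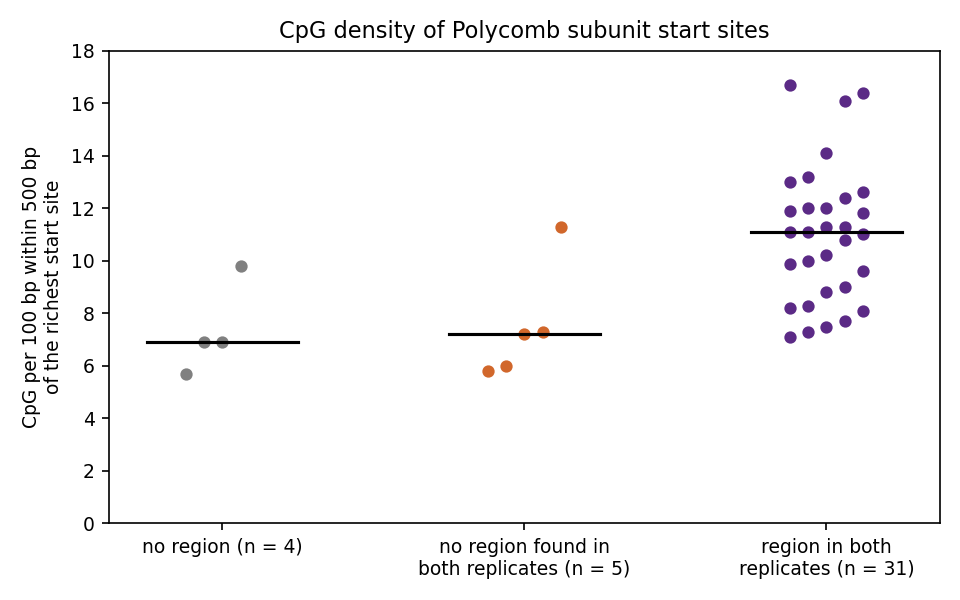
CpG density at the richest start site of each member, in CpG per 100 bp, by whether the locus had no RYBP region, regions but none found in both replicates, or a region in both; points are genes and lines are medians. The members occupied in both replicates had a median of 11.1, against 6.89 for the 4 with no region.

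Letters bound by the DNA-binding subunits of PRC1.6 were searched in the same 300-base windows as printed above. The E-box CACGTG, which reads the same on both strands and is bound by MAX dimers, was present in 9 of 40 members (22.5%), against 7.78% of all genes and 9.93% of genes with a region at a start site. These were Yaf2, Bcorl1, Max, Bmi1, Cbx8, Phc1, Phc2, Phc3 and Rbbp4. The E2F-type letters GCGGGAA, or TTCCCGC on the other strand, were present in 5 members (12.5%), against 5.60% of all genes and 8.34% of those with a region. These were Rnf2, Scmh1, Ezh2, Suz12 and Phf19. Ezh2 alone of these held more than 1 match, starting 72 and 39 bases before its 5′ end. Its window, chr6:47545291-47545590 on the minus strand, is printed with both matches in capitals to show how closely they lie.
Ezh2: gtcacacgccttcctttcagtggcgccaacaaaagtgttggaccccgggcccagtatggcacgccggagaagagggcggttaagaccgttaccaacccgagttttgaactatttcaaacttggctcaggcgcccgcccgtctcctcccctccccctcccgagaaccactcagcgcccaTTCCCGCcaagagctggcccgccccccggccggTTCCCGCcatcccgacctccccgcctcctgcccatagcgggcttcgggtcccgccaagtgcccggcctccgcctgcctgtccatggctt
The 2 motifs do not overlap each other in letters.

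The counts changed with the position of the window. In 300 bp at the centre of the strongest region of each of the 36 occupied members, the E-box was present in 4 (11.1%), against 6.55% of all merged regions. The E2F letters were present in 6 (16.7%), against 6.05%. Neither motif was in the 5′-end windows of E2f6, Rybp, Mga or Jarid2, the members with the highest mean fold enrichments. These matches are letters in a window and not measured binding sites. Both motifs contain a CpG, and the members are richer in CpG than all genes. No motif share was counted over genes of like CpG density, so that a part played by base composition was not tested.

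Genes of linked functions were counted for comparison. Of 14 further PRC1 partner genes, 10 had a region and 8 had one in both replicates, with the highest replicate 1 value at Hdac2, a histone deacetylase gene (5.55 and 5.90), and the highest replicate 2 value at Fbrsl1, which held 6 regions (3.98 and 6.05). Scml2, Csnk2a1, Fbrs and Hdac1 had none. Of 10 genes of the PR-DUB complex, which removes ubiquitin from H2A, 7 had a region and 4 in both replicates. Asxl3 was the highest of these (5.62 and 5.93), and Hcfc1, Mbd5 and Mbd6 had none. Of 14 Trithorax genes and demethylases that counter Polycomb, 11 had a region and 9 in both replicates, led by the H3K27 demethylase gene Kdm6b (4.67 and 4.77 in the strongest of 3 regions). Ash1l, Rbbp5 and Kdm6a had none. Most of these genes had a CpG-rich start site (12 of 14, 10 of 10 and 13 of 14, respectively). Their counts are to be read against the 57.1% of all genes with a region and 38.9% with one in both replicates, and against 82.2% and 58.5% of CpG-rich genes with one at a start site. The difference between the lists was not tested.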

How the data were processed

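ChIP-seq for RYBP was performed by the authors on 2 samples of FLK1+ cells, with 2 inputs. According to the methods and the processing notes of the submitters, reads were aligned to mm9 with Bowtie 1.1.2b, duplicates were removed, and broad peaks were called per replicate with MACS2 2.0.10. The labels give day 3.75 and the methods a slightly later day; the design text names SCL ChIP, whereas title, antibody and study name RYBP, which was followed.

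Each deposited peak list gives fold enrichment, a linear ratio from the caller the authors used. Further deposited columns are −log10 p-values and −log10 q-values, and a score of 10 times the −log10 q, which was not used further. A deposited merged list holds the union of both. The deposited lists hold no reads or depths, and depth was not used in any calculation.

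Peaks were set against protein-coding genes of the GENCODE annotation for mm9 by overlap of at least 1 bp, with Python 3.11.15, pandas 2.3.3 and pysam 0.24.0. A region counted as found in both replicates when a peak of each overlapped it. Where a locus had several peaks, the highest fold enrichment was used. Sequence was read from the genome of that build. All 40 members are named; of the other lists, genes without a region or with the highest value are. Members, lists and tests were chosen with earlier results of these data known. The code was tested on simulated data. Nothing says whether the replicates came from separate cultures, so their spread may be technical.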

Additional observations from a re-analysis of the deposited data

How the results depend on the processing

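Of 102 alternative values, 92 stayed near those given, that is within 1.5 times for counts and within 1 SD of the replicate values for shares, and 10 did not. Counted in both replicates, regions were found at 3 PRC2 core genes and 3 PRC2 accessory genes, instead of 5 and 5. Leaving out 1 replicate gave 3 to 5 accessory genes, Phf1 and Mtf2 having peaks in replicate 2 alone. The share of all genes with a region fell to 38.9% with regions in both replicates and to 47.4% at a −log10 q of at least 2, and leaving out 1 replicate gave 43.9% to 53.7%. For CpG-rich genes these shares were 58.5% and 70.8%, and 63.2% to 78.6% with 1 replicate left out. E-box letters were in 4 members at region centres instead of 9. With 5 kb added on both sides of each gene, 37 members had a region instead of 36, and 32 had one in both replicates instead of 31. The added member in the merged list was L3mbtl2. The planned use of −log10 q in place of fold enrichment is in another unit and was not compared. No member lost all its regions when peaks had to reach a −log10 q of 2, or a fold enrichment of 3, in at least 1 replicate. Members with a region in both replicates fell from 31 to 27 and 28, respectively. Regions at member loci found in both replicates fell from 44 to 35 at a −log10 q of 2. They fell to 33 when the peaks of the replicates had to overlap by 50%. No paired analysis was possible because a single group had processed files and no test between groups was made. The number of replicates limits these values, and depth, which the peak lists do not hold, could not be taken into account: a region in 1 replicate alone, or none, does not show that RYBP was absent.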
